A study of Mus musculus with 51 samples.

Results

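The change in H3K4me3 between late pachynema and diplonema, the last 2 sorted substages of meiotic prophase I, was described from the peak lists of the EpiCypher H3K4me3 antibody. These were 4 lists, from experiment 1 and experiment 2 of each substage, out of 20 lists and 51 samples in the study. They held 33029 of its 94195 H3K4me3 peaks. Overlapping or adjoining peaks were merged into 12547 sites. A site was gained if both diplonema libraries and no late pachynema library had a peak there, lost if both late pachynema libraries and no diplonema library had one, and kept if all 4 had one. By this rule 606 sites were gained, 17 were lost and 4367 were kept, which is 4.83%, 0.135% and 34.8% of the merged sites.

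Both groups came from whole testis of adult wild-type male C57Bl/6J mice, and no group was treated or carried a mutation. Nuclei were fixed with formaldehyde, stained and sorted by FACS on the DNA content of primary spermatocytes, on SCP3, and on the levels of SCP1 and H1t, and the chromatin was sheared by sonication. Late pachytene and diplotene nuclei thus came through the same sort and were separated by gates on those signals, and a sorted population also holds some nuclei of other stages. The libraries used for comparison were H3K4me3 lists of leptonema (sorted with STRA8), zygonema and early pachynema, 2 libraries each, and 1 list per substage for H3K4me2/3 (Abcam antibody, experiment 2) and for H3K9ac (experiment 1).

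H3K4me3 is a histone mark set by SET1 and MLL methyltransferase complexes at active and poised promoters, and promoters rich in CpG dinucleotides carry it in most cell types. H3K4me2 often covers a wider area around the same promoters and is also found at enhancers. Spermatocytes transcribe few genes early in prophase and many from mid pachynema, when genes of the meiotic divisions and of the later spermatid come on. At diplonema the homologous chromosomes desynapse before they condense for division.

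The windows that follow are the central 300 bp of the widest gained and lost promoter sites of protein-coding genes, 3 gained and then 2 lost. They are shown because gained and kept sites stood apart in CpG content. They are read 5′ to 3′ on the plus strand of GRCm38.p6, the assembly behind mm10, and CpG dinucleotides are in capitals.
Hapln2, chr3:88023266-88023565: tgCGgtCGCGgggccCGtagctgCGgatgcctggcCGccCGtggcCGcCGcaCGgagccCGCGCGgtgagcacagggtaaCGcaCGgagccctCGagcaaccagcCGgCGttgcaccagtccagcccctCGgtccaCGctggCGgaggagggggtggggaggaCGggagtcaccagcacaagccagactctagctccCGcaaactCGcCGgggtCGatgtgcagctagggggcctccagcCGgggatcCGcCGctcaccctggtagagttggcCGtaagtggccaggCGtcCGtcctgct
Trim69, chr2:122160484-122160783: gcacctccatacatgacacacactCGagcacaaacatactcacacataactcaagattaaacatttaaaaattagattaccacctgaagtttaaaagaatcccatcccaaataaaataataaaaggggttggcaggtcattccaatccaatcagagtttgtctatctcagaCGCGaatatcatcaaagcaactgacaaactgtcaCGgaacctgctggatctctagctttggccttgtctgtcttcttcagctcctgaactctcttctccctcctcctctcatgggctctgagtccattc
Sgca, chr11:94971591-94971890: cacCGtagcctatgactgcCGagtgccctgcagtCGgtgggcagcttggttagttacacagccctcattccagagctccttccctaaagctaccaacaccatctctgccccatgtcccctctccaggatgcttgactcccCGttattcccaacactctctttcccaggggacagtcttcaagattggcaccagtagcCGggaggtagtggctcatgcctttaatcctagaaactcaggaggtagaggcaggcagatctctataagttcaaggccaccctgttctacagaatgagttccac
Nelfb, chr2:25211124-25211423: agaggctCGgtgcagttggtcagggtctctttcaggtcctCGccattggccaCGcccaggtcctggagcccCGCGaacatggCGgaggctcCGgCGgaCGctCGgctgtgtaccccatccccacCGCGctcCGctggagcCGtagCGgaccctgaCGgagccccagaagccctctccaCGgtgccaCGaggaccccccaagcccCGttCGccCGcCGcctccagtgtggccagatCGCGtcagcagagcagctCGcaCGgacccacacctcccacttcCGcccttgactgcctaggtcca
Narf, chr11:121236962-121237261: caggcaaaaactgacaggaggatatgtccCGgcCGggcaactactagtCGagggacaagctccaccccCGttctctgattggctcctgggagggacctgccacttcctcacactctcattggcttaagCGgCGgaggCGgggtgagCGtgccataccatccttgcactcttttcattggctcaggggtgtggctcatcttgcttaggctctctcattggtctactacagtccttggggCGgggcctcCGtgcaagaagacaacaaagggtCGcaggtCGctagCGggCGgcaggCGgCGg

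The Hapln2 window held 32 CpG dinucleotides, an observed over expected ratio of 0.832. The Trim69 window held 4 (ratio 0.332) and the Sgca window 5 (ratio 0.239). The lost windows of Nelfb and Narf held 27 (ratio 0.772) and 16 (ratio 0.594). The sites of Hapln2 and Sgca lie at a transcript start of GENCODE but not of RefSeq. Hapln2 was a CpG-rich exception, while Trim69 and Sgca were CpG-poor, as most gained sites were.

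The lists differed in length within each stage. Late pachynema library 1 had 5189 peaks and library 2 had 9124, and diplonema library 1 had 6645 and library 2 had 12071. Experiment 2 gave the longer list at both stages, and the stages overlapped. The mean was 7156.5 ± 2782 (SD, n = 2) at late pachynema and 9358 ± 3837 at diplonema, a difference of 2201.5 peaks (p = 0.667, two-sided exact permutation test). With 2 libraries against 2 the smallest p of this test is 0.333, so no comparison between the stages could pass 0.05. The labels do not say whether the experiments came from separate animals, so this p measures the spread between these libraries, which may be technical. The lists do not give the depth behind them, the depth and purity that the study states for its libraries were not used here, and the intervals given (95%, exact binomial) cover counting error over sites only. A mark on fewer nuclei and less mark per nucleus cannot be told apart in these data.

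Peaks of the diplonema lists were wider, and a smaller share of them lay at a transcription start site (TSS), taken as 500 bp to either side of a GENCODE M21 transcript start. The median peak width was 426 bp and 578 bp in the late pachynema libraries and 689 bp and 773 bp in the diplonema libraries, with a difference of means of 229 bp (p = 0.333, exact permutation test). The share of peaks at a TSS was 95.8% and 87.5% in late pachynema and 87.2% and 80.4% in diplonema. The means were 91.6% ± 5.88 and 83.8% ± 4.82 (SD, n = 2), and the difference of -7.87 percentage points had p = 0.333 in the exact permutation test. The widths of the stages did not overlap. The TSS shares of late pachynema library 2 and diplonema library 1 were nearly equal, and with TSSs taken as 1000 bp to either side the stages overlapped (difference -7.29 points, p = 0.667, exact permutation test).

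The longest list, that of diplonema library 2, held most of the sites that were not shared by all libraries. Besides the 4367 kept sites, 2618 sites had a peak in diplonema library 2 alone, 2385 in both libraries of experiment 2, and 1400 in every library but late pachynema library 1. Combinations without diplonema library 2 were rare, with 317 sites in late pachynema library 2 alone and 80 in diplonema library 1 alone. When every list was cut to its 5189 widest peaks, the length of the shortest list, 434 sites were gained and 308 were lost. Within experiment 1, 2221 sites had a peak in diplonema only and 762 in late pachynema only, and within experiment 2 these were 3352 and 346. Gained sites thus outnumbered lost sites by far in the full lists and by less within an experiment or in lists of equal length. The part that list length had in the count was not tested further.

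**Figure D1:**
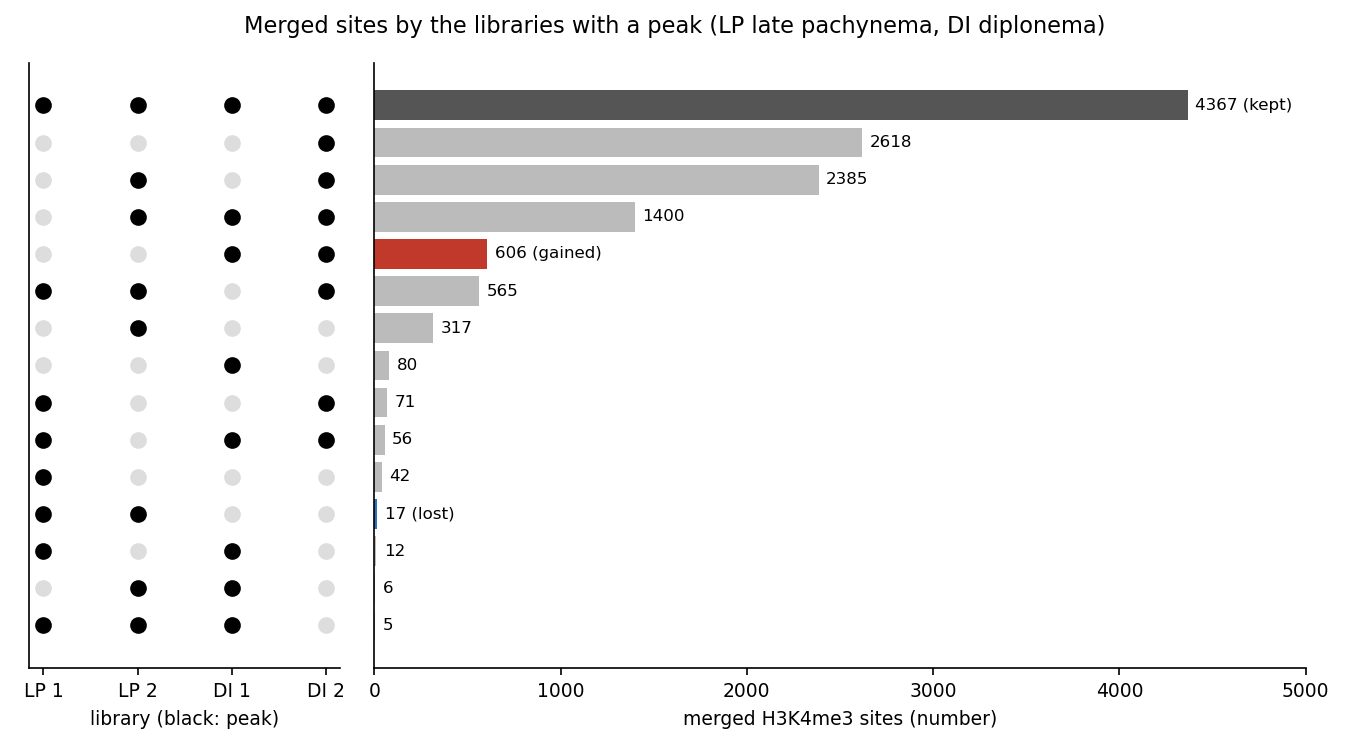
Number of merged H3K4me3 sites for each combination of libraries with a peak, in late pachynema (LP) and diplonema (DI), libraries 1 and 2, where black dots mark a library with a peak. The 606 gained and 17 lost sites stand beside 4367 kept sites and 2618 sites found in diplonema library 2 alone.

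Gained sites were of moderate width in diplonema, and lost sites were narrow in late pachynema. At gained sites the median width was 426.5 bp in diplonema library 1 and 829 bp in library 2, at the median width percentiles 26.0 and 53.1 of those lists. The peak was wider in library 2 at 553 of 606 gained sites. At lost sites the median width was 184 bp and 271 bp in the late pachynema libraries, at percentiles 8.63 and 18.4. Many lost peaks lay at the lower limit of their lists. In late pachynema library 1, 7 of 17 were within 20 bp of the narrowest peak (155 bp), against 6.63% of the list, and in library 2, 6 of 17 were within 20 bp of the narrowest (151 bp), against 5.72%. For gained sites these numbers were 60 of 606 in diplonema library 1 (9.90%, against 4.30% of the list) and 2 of 606 in library 2 (0.330%, against 4.15%).

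Of the gained sites, 350 (57.8%, interval 53.7 to 61.7%) were at a TSS, against 4253 of 4367 kept sites (97.4%) and 16 of 17 lost sites. Of all 12547 merged sites 9922 (79.1%) were at a TSS. The 256 gained sites outside TSSs comprised 40 in exons, 79 in introns and 137 in intergenic sequence. Among them 43 were at a TSS of the RefSeq annotation. Their median distance to the nearest GENCODE TSS was 11943 bp, with 68 within 5 kb and 37 more than 50 kb away. Gained sites were scattered over the genome, since 4 lay within 10 kb of another gained site and the median distance to the nearest kept site was 115 kb. Between 3.39% and 6.71% of the merged sites of a chromosome were gained (median 4.91%). The centre of a gained TSS site lay a median of 165.5 bp downstream of the nearest start, against 66 bp for kept and 32.5 bp for lost sites.

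Gained sites were poorer in CpG than lost and kept sites. The median observed over expected ratio in the central 300 bp was 0.371 at gained sites, 0.792 at lost sites and 0.852 at kept sites. At TSSs alone it was 0.434 at gained and 0.855 at kept sites, and outside TSSs 0.301 and 0.547. Over all merged sites it was 0.854 at TSSs and 0.429 outside them. Lower ratios than at kept sites were not confined to gained sites. The median was 0.200 at the 80 sites of diplonema library 1 alone and 0.534 at the 317 of late pachynema library 2 alone. At the 1400 sites in every library but late pachynema library 1 it was 0.635. At the 2618 sites of diplonema library 2 alone it was 0.716, and at the 2385 of both experiment 2 libraries 0.933. The ratio was under 0.6, a common limit for CpG islands, at 70.9% of gained and 13.4% of kept TSS sites. The lower ratio of gained sites was thus seen at TSSs as well as outside them. In RefSeq promoters, from 250 bp before to 50 bp after the start, the median was 0.545 at gained sites and 0.874 at kept sites. Over all 31396 RefSeq promoters it was 0.389. Promoters at gained sites thus had a lower ratio than those at kept sites and a higher one than promoters in general. No test was made between the classes, since sites are not replicates.

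Among TSS sites, the share that was gained was lower in each higher range of CpG content. At a ratio up to 0.2, 69 of 259 merged TSS sites were gained (26.6%, interval 21.4 to 32.5%) and 15.4% were kept. From 0.4 to 0.6, 9.51% of 946 sites were gained and 40.6% were kept. From 0.8 to 1, 0.715% of 3915 sites were gained and 45.2% were kept, and above 1, 3 of 1999 were gained. Gained sites thus outnumbered kept sites in the lowest range alone. With lists of equal length the median ratio was 0.440 at gained and 0.914 at lost sites. Without diplonema library 1 it was 0.625 at gained sites.

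**Figure D2:**
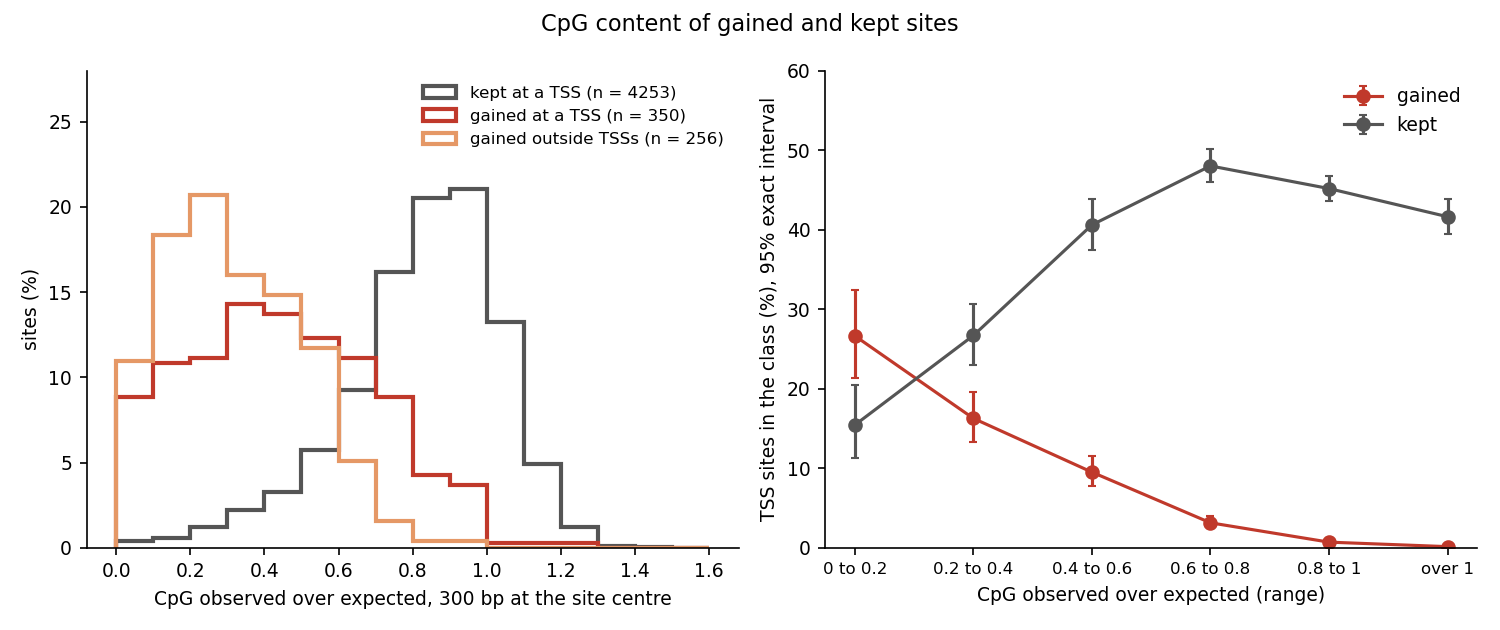
Left, distribution of the CpG observed over expected ratio (central 300 bp) of 350 gained and 4253 kept TSS sites and 256 gained sites outside TSSs, in percent of sites. Right, percent of all merged TSS sites in each range of that ratio that were gained or kept, with 95% exact binomial intervals, where the gained share drops from 26.6% in the lowest range to 0.150% in the highest.

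Short promoter motifs were searched on both strands of the same windows, in gained, kept and all merged TSS sites. The GC box GGGCGG, bound by SP factors, was present at 26.9% of gained, 63.3% of kept and 62.0% of all merged TSS sites. The TATA box TATAAA was present at 10.9%, 2.82% and 3.19%, and the CCAAT box, bound by NF-Y, at 31.4%, 22.0% and 22.7%. Gained TSS sites thus held the GC box at a lower and the TATA box at a higher share than kept ones. The windows also differed in base composition, with a median GC content of 52.8% at gained, 66.7% at kept and 67.3% at all merged TSS sites. Their centres lay a median of 165.5 bp (gained) and 66 bp (kept) downstream of the nearest start. The part of composition and position in the motif shares was not tested. The ETS site CCGGAAG was found at 6.29%, 16.7% and 13.0%, and TGACG, the core of the cAMP response element, at 16.9%, 31.4% and 28.1%. The RFX element GTTGCC was about as frequent in each (13.7%, 13.3% and 12.4%), and the MYB element AACNGTT was at 6.00%, 3.03% and 2.79%. These are matches of letters and not bound sites, and the motifs can overlap. In RefSeq promoters, which run from 250 bp before to 50 bp after the start, the TATA box was in 9.35% of 246 at gained sites, 5.25% of 5026 at kept sites and 13.6% of all 31396 promoters. The GC box was in 40.2%, 69.7% and 35.98%. Set against all promoters, those at gained sites were therefore not rich in TATA boxes.

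Most gained sites had no H3K4me3 peak in the earlier substages, whereas most kept and lost sites did. At gained sites a peak was present at 13.7% and 21.5% in the leptonema libraries, 12.9% and 10.9% in zygonema, and 10.2% and 2.81% in early pachynema. Over all merged sites the shares ran from 38.0% in early pachynema library 2 to 65.7% in leptonema library 2. At kept sites they ran from 83.4% to 95.1%, and at lost sites from 52.9% in early pachynema library 2 to 100% in 3 libraries. The mean over these 6 libraries, which did not define the classes, was 12.0% ± 6.03 (SD, n = 6) for gained, 88.2% ± 18.6 for lost and 89.8% ± 4.09 for kept sites. The gained share was below the lost and the kept share in 6 of 6 libraries. The mean difference was -76.2 percentage points against lost and -77.8 against kept sites, each with p = 0.03125 and adjusted p = 0.0469 (two-sided exact sign-flip test over libraries, 6 tests adjusted by Benjamini-Hochberg). This is the smallest p that 6 libraries allow. The 6 libraries are of different stages and are not replicates of a condition. Gained sites were chosen for having no call at late pachynema, and lost and kept sites for having calls in both libraries. How far the difference follows from this choice was not tested, so the p adds no support to a difference between the classes. The difference between lost and kept sites was -1.53 points (p = 0.906, exact sign-flip test). Without late pachynema library 1, when 334 sites counted as lost and on average 23.5% of them had a peak, the difference between gained and lost sites was -6.89 points (p = 0.0625, exact sign-flip test).

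Altogether 459 gained sites (75.7%) had no peak in the 6 earlier libraries, 226 of them at a TSS, against 100 kept sites (2.29%). The other 147 had a peak in at least 1 of these libraries. Both leptonema libraries had a peak at 80 gained sites, and at 32 of these both early and late pachynema lists had none, so that the call returned at diplonema. The 76 gained TSS sites with a peak in both leptonema libraries had a median CpG ratio of 0.694, and the 226 gained TSS sites without an earlier peak one of 0.317. Gained TSS sites with earlier H3K4me3 were thus richer in CpG than those without it.

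All 606 gained sites already had a peak of H3K4me2/3 at late pachynema, with the Abcam antibody (interval from 99.4%). At diplonema 606 of 606 had one, and in the earlier substages 54.1% (leptonema), 49.5% (zygonema) and 67.7% (early pachynema). A peak in all 5 substages was seen at 257 gained sites (42.4%), in late pachynema and diplonema only at 160 (26.4%), and from early pachynema on at 93 (15.3%). Of all merged sites 92.1% had this peak at late pachynema and 93.0% at diplonema, and 85.2%, 81.6% and 81.7% in the earlier substages, where gained sites were lower. Of the kept sites 99.9% had it at late pachynema, and of the sites of diplonema library 2 alone 77.1%. The H3K4me2/3 lists held 19711 peaks at late pachynema and 18191 at diplonema, so the sites that entered the H3K4me3 lists at diplonema were within the longer lists of this antibody before.

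The H3K4me2/3 peak at gained sites was wider in diplonema. Its median width was 1706.5 bp at late pachynema and 2073.5 bp at diplonema, the median log2 ratio was 0.27, and 484 of 606 sites were wider at diplonema (79.9%, interval 76.5 to 83.0%). The share was 78.9% at gained TSS sites and 81.3% outside TSSs. At kept sites the median log2 ratio was 0.11 with 64.9% wider, and over all merged sites with both peaks 0.10 with 62.0% wider. At lost sites the median width was 1519 bp at late pachynema and 1152 bp at diplonema, with 7 sites wider and 10 narrower (41.2% wider, interval 18.4 to 67.1%). The H3K4me2/3 widths at gained sites thus moved in the direction of the calls that defined them. At lost sites the interval spans the share over all merged sites, so no direction is read from it. There was 1 library per stage, from experiment 2, which also gave library 2 of H3K4me3, so these widths have no replicate check.

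H3K9ac, an acetylation of active promoters, was called at a smaller share of gained sites than of kept or all merged sites in each substage. The titles of these libraries name H3K9ac, while their antibody label names H3K4me3, and they are described here by the titles. From leptonema to diplonema it was called at 2.48%, 23.4%, 22.1%, 0.495% and 0.660% of gained sites. At kept sites the shares in the same order were 43.7%, 92.8%, 96.3%, 34.8% and 9.69%. Over all merged sites they were 21.1%, 58.3%, 54.4%, 13.5% and 4.01%. The H3K9ac lists themselves shortened, with 7744, 1727 and 516 peaks in the last 3 substages. At diplonema 4 of the 606 gained sites (0.660%) were in the H3K9ac list, against 9.69% of kept sites. The part that list length had in these shares was not tested.

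**Figure D3:**
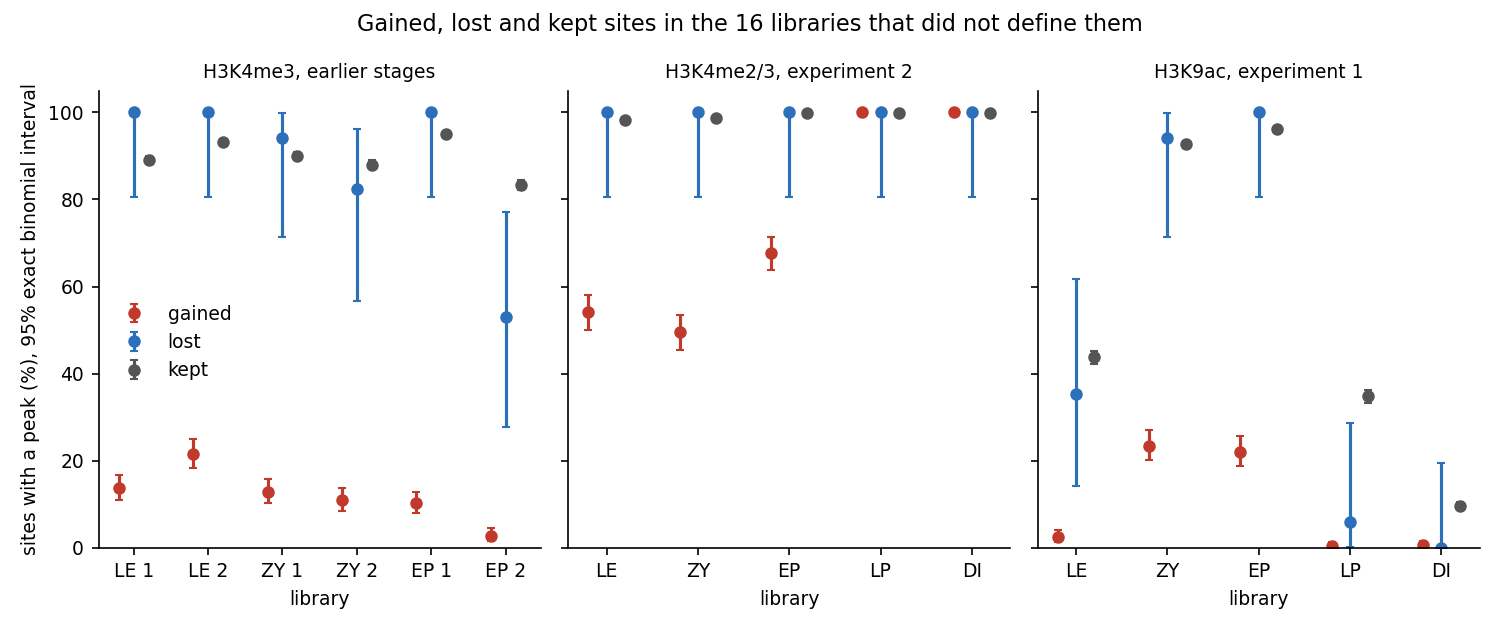
Percent of gained, lost and kept sites with a peak in the 16 libraries that did not define them, with 95% exact binomial intervals (LE leptonema, ZY zygonema, EP early pachynema, LP late pachynema, DI diplonema). Gained sites lie at or below 21.5% in the 6 earlier H3K4me3 libraries and at 100% in the H3K4me2/3 libraries of late pachynema and diplonema.

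Kept sites were wider in diplonema in both experiments. Their median width was 475 bp and 840 bp in the late pachynema libraries and 816 bp and 1263 bp in the diplonema libraries. The median log2 ratio of diplonema over late pachynema was 0.61 in experiment 1 and 0.55 in experiment 2. Of the 4367 sites 3541 (81.1%) were wider in experiment 1, 4149 (95.01%) in experiment 2, 3402 (77.9%) in both, and 78 (1.79%) were narrower in both. The difference between the experiments was of the same size, with a median log2 ratio of 0.66 for library 2 over library 1 at late pachynema and 0.57 at diplonema. Between experiments, diplonema library 1 over late pachynema library 2 had a median log2 ratio of -0.02, and the part of the experiment in the widths was not tested. The median log2 width was 8.89 and 9.71 at late pachynema and 9.67 and 10.30 at diplonema, so the stages overlapped (difference of means 0.68, p = 0.667, exact permutation test). Across kept sites the log2 ratios of the 2 experiments had a Pearson r of 0.21, given as a description since sites of 1 library share its depth. The size of the change at single sites was thus only weakly shared between the experiments.

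**Figure D4:**
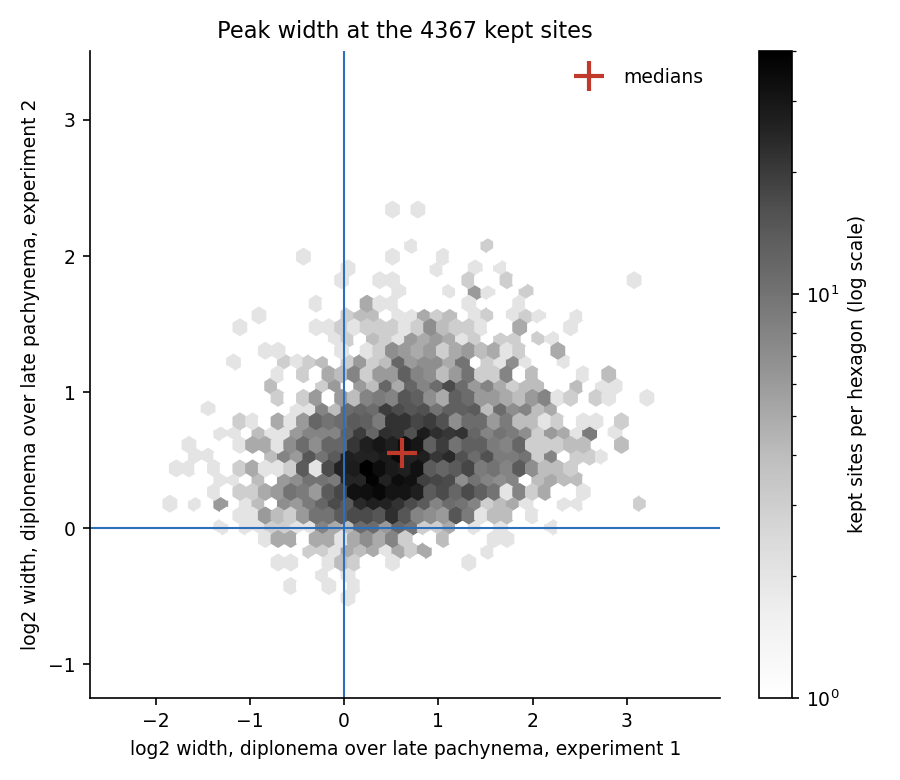
Log2 peak width at diplonema over late pachynema in experiment 1 (x axis) and experiment 2 (y axis) at the 4367 kept sites, as the number of sites per hexagon on a log scale. The red cross marks the medians, 0.61 and 0.55, and 77.9% of sites lie at the upper right, where both ratios are above 0.

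The kept promoter sites with the largest rise in width in both experiments were several times wider in diplonema. The site shared by Prune1, a phosphoesterase, and Mindy1, a deubiquitinase (chr3:95281593-95283914), was 207 bp and 237 bp in late pachynema and 1784 bp and 2322 bp in diplonema, a mean log2 ratio of 3.20. The site of Cep89, a centrosomal protein, and Faap24 was 160 bp and 240 bp against 1127 bp and 1213 bp (2.58), and that of Borcs7, a subunit of a lysosome-positioning complex, 202 bp and 181 bp against 1048 bp and 1174 bp (2.54). At each of these both diplonema peaks were wider than both late pachynema peaks. Zfp688, a zinc finger gene (2.51), and Tob2, an antiproliferative factor (2.46), followed. The largest narrowing was smaller. Ocel1 was 736 bp and 577 bp in late pachynema and 165 bp and 526 bp in diplonema (mean log2 ratio -1.15), and Mtg2, a GTPase of the mitochondrial ribosome, 530 bp and 555 bp against 161 bp and 435 bp (-1.04). Reck, an inhibitor of metalloproteinases (-0.96), U2af1, a splicing factor subunit (-0.92), and Fam120a (-0.89) completed this end.

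At the level of genes, 393 of 51229 genes with a TSS on chromosomes 1 to 19 were gained (0.767%), meaning that some TSS had a peak in both diplonema libraries and none had one in late pachynema. By the same rule 21 were lost (0.0410%) and 5662 kept (11.1%). Among 20807 protein-coding genes 229 were gained (1.10%), 17 lost (0.0817%) and 4805 kept (23.1%). With lists of equal length 338 genes were gained and 369 lost, and 151 of the 393 gained and 6 of the 21 lost genes were among them. This cut keeps the widest peaks, so list length and width changed together, and their parts were not tested.

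Gained genes held more non-coding genes than kept genes and fewer than the annotation as a whole. Protein-coding genes made up 58.3% of gained, 84.9% of kept and 40.6% of all genes. Long intergenic non-coding RNA (lincRNA) genes made up 63 of 393 gained genes (16.03%, interval 12.5 to 20.0%), against 2.83% of kept genes and 10.2% of all genes. Antisense genes were 8.65% of gained, 4.70% of kept and 5.69% of all genes, and pseudogenes 6.36%, 0.954% and 22.6%. Gained TSS sites without a protein-coding transcript, 138 in number, had a median CpG ratio of 0.334, against 0.501 for the 212 with one. At 38 of the 350 gained TSS sites the gene had another TSS that was marked in late pachynema, so that another promoter of the gene was already marked.

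The widest gained promoters had diplonema peaks of 1391 bp to 2004 bp. Hapln2, a hyaluronan link protein known from brain (chr3:88022414-88024417), had no peak in either late pachynema library and peaks of 1851 bp and 2004 bp in diplonema, and H3K4me2/3 of 1860 bp and then 2832 bp. Trim69, a RING-type ubiquitin ligase of testis (chr2:122159789-122161479), had 1415 bp and 1666 bp in diplonema and H3K4me2/3 of 2858 bp and then 3918 bp. Sgca, alpha-sarcoglycan of the muscle dystrophin complex (chr11:94970912-94972570), had 1391 bp and 1659 bp in diplonema and H3K4me2/3 of 2997 bp and then 3940 bp. In these 3, both the new H3K4me3 peak and the H3K4me2/3 peak were wide at diplonema. Trim69 and Sgca had no H3K4me3 peak in the 6 earlier libraries, and Hapln2 had one in 2 of them.

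The next 7 promoters had peaks of 756 bp to 1819 bp in diplonema. The site of Tmem53, a nuclear envelope protein, and Armh1 (chr4:117251085-117252630) was 1377 bp and 1419 bp wide in diplonema and had a peak in 4 of the 6 earlier libraries. Dapp1, a phosphoinositide-binding adaptor of lymphocytes (chr3:137954347-137955834), had 1273 bp and 1447 bp, and Bpi, a bactericidal protein of neutrophils (chr2:158257413-158258930), 1174 bp and 1477 bp. Adam1b, a sperm surface ADAM protein (chr5:121502066-121503884), had 756 bp and 1819 bp. Gykl1, a glycerol kinase-like gene on chromosome 18, had 998 bp and 1559 bp, and Slc25a2, a mitochondrial ornithine transporter on the same chromosome, 949 bp and 1596 bp. Sp2, a zinc finger factor (chr11:96981311-96982694), had 1384 bp and 1140 bp inside an H3K4me2/3 peak of 7056 bp at late pachynema and 7333 bp at diplonema. None of these had a peak in late pachynema. Of the 10 named genes, all but Sp2 were also gained with lists of equal length.

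**Figure D5:**
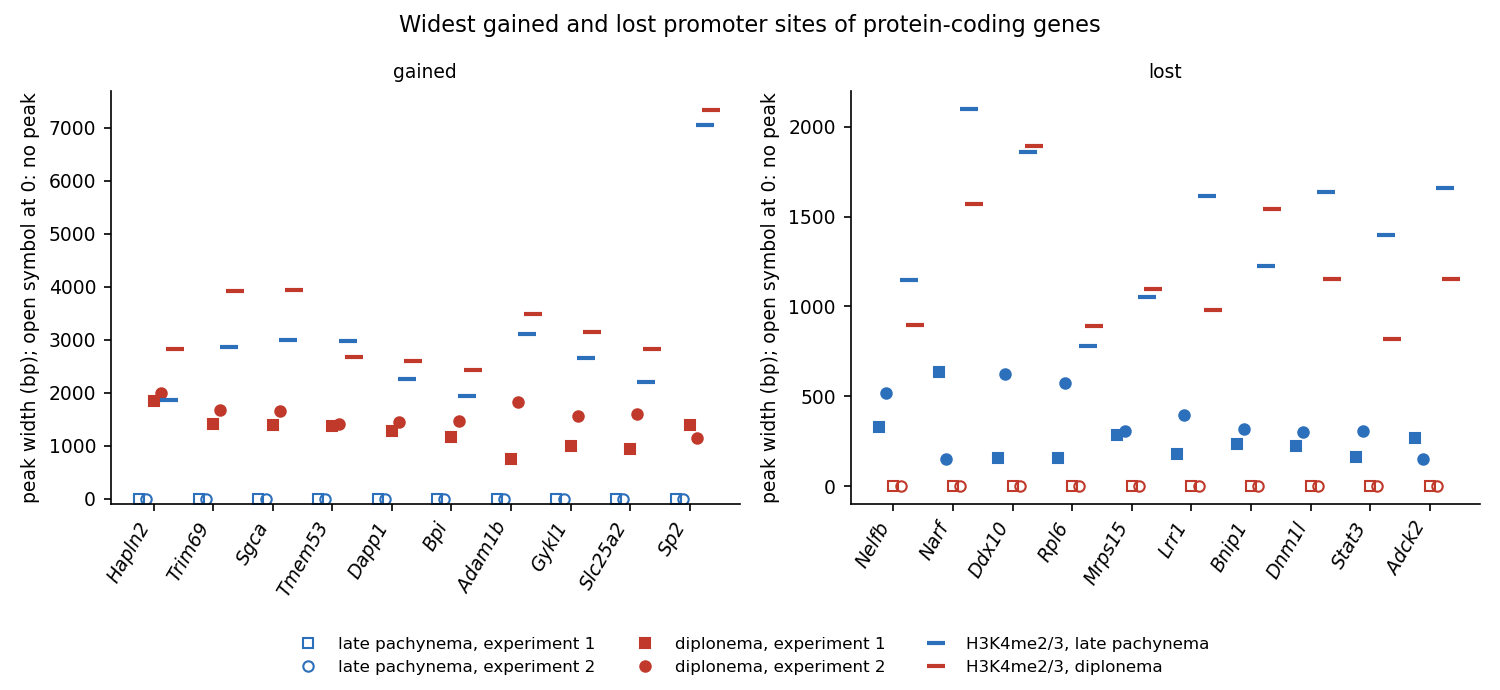
Peak widths in bp at the 10 widest gained and the 10 widest lost promoter sites of protein-coding genes, with H3K4me3 in 4 libraries (squares experiment 1, circles experiment 2, open symbols at 0 for no peak) and H3K4me2/3 in 1 library per stage (bars). Gained sites reach 2004 bp in diplonema, while no lost site exceeds 634 bp in late pachynema, and H3K4me2/3 peaks are present at both stages at each site.

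The widest gained sites outside TSSs reached the widths of gained promoters. An intergenic site at chr8:106560090-106561927, 11534 bp from the nearest TSS (Gm10073), had 1662 bp and 1678 bp in diplonema. A site in an intron of Snrnp40, a splicing factor gene (chr4:130370837-130372659), had 1570 bp and 1756 bp, and one in an intron of the heat shock gene Hspa12a (chr19:58874629-58876221) 1165 bp and 1593 bp. The last 2 were an exon of Gm6639 (chr3:35662177-35663719), with 1201 bp and 1543 bp, and an intron of Sorcs1, a sortilin-related receptor (chr19:50539953-50541794), with 862 bp and 1842 bp. All 5 had an H3K4me2/3 peak at late pachynema, of 2142 bp to 5168 bp.

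The lost promoters were narrow in late pachynema, with at most 634 bp. Nelfb, a subunit of the pausing factor NELF (chr2:25211014-25211534), had 328 bp and 521 bp in the late pachynema libraries and no peak in diplonema. Narf, a prelamin-binding protein (chr11:121236795-121237428), had 634 bp and 151 bp, and the RNA helicase gene Ddx10 (chr9:53247855-53248490) 156 bp and 623 bp. Rpl6, a protein of the large ribosomal subunit (chr5:121204593-121205165), had 155 bp and 573 bp. In Narf, Ddx10 and Rpl6 the peak of 1 library was close to the narrowest of its list. Mrps15 of the mitochondrial ribosome (285 bp and 305 bp), the ubiquitin ligase receptor Lrr1 (178 bp and 398 bp), the SNARE Bnip1 (235 bp and 321 bp), the mitochondrial fission GTPase Dnm1l (224 bp and 301 bp), Stat3 (162 bp and 308 bp) and Adck2 (268 bp and 151 bp) followed. All 17 lost sites kept an H3K4me2/3 peak at diplonema and had H3K4me3 in both leptonema libraries. These traits were common, since 99.9% of kept and 93.0% of all merged sites had that H3K4me2/3 peak. Both leptonema libraries had a peak at 3862 of 4367 kept sites. Of the 10 named lost genes, Nelfb, Ddx10 and Rpl6 were also lost with lists of equal length.

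The gene groups were counted against the background of 1.10% gained and 23.1% kept among protein-coding genes. Genes of the sperm tail and axoneme had 5 gained of 70 (7.14%), the highest count of the 12 lists, and 28 kept (40%). The gained ones, with their width in the diplonema libraries, were Dnali1, an axonemal dynein light chain (292 bp and 350 bp), Cfap58 (161 bp and 354 bp), the sperm calcium channel subunit Catsperd (351 bp and 564 bp), the septin Sept12 of the sperm annulus (181 bp and 753 bp) and Fsip1, a fibrous sheath interactor (247 bp and 426 bp). None of these 5 had a peak in late pachynema, and each peak was narrower than the median of its list. A further 15 tail genes had a peak in every library but late pachynema library 1, the shortest list. Of merged sites 11.2% had this pattern, and its share over genes was not counted. Of the 70 genes 29 and 44 were marked in the late pachynema libraries and 49 and 51 in the diplonema libraries. Among all protein-coding genes 26.8% and 40.3% were marked in late pachynema and 29.3% and 46.8% in diplonema. With lists of equal length none of the 5 was gained, while Dnaic2 and Rsph6a were gained and Spag16 lost.

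Other lists of the spermatid programme had no gained gene. Of 36 acrosome and sperm-egg genes none was gained and 10 were kept (27.8%), with 12 and 17 marked in late pachynema and 16 and 18 in diplonema. Of 22 spermatid chromatin genes none was gained and 9 were kept (40.9%), with 9 and 12 marked in late pachynema and 11 and 12 in diplonema. These counts overlapped between the stages. With lists of equal length the acrosome gene Calr3 was lost and no gene of either list was gained. Among kept genes of the 3 spermatid lists, peaks were wider in diplonema in both experiments at 9 of 10 acrosome, 9 of 9 chromatin and 24 of 28 tail genes, against 77.5% of 4805 kept protein-coding genes. For example, peaks at Pdcl2, a phosducin-like gene of spermatids, summed to 173 bp and 518 bp in late pachynema and 919 bp and 1620 bp in diplonema. Those at Brdt, the testis bromodomain protein, summed to 525 bp and 1160 bp, against 1742 bp and 2202 bp. For both genes each diplonema library was above both late pachynema libraries.

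Genes of the meiotic divisions were mostly marked at both stages. Of 47, 29 were kept (61.7%) and 1 gained, Aurkc, the Aurora kinase of meiosis, with 273 bp and 494 bp in diplonema. The libraries had 29 and 42 genes marked at late pachynema and 40 and 43 at diplonema. A peak in every library but late pachynema library 1 was seen at 10 genes, a pattern of 11.2% of merged sites. Of 36 transcription regulators of pachynema and spermatids 20 were kept and 1, Trim69, was gained. The kept ones included Crem, an activator of spermatid genes, with 1116 bp and 1685 bp in late pachynema and 1957 bp and 3170 bp in diplonema. In glycolysis and testis isozymes 13 of 38 were kept and the hexokinase gene Hk1 was gained, with summed peaks of 463 bp and 980 bp in diplonema and a peak in both leptonema libraries. With lists of equal length Trim69 was still gained, while Aurkc and Hk1 were not. In the division list Kif23 was then gained and Cenpe lost, and no gene of the glycolysis list was gained.

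Genes of the chromosome axis, synapsis and recombination, processes of earlier prophase, had 18 of 48 kept (37.5%) and 2 gained. Hormad2, an axis protein of unsynapsed chromosomes, had no peak in late pachynema and 921 bp and 1455 bp in diplonema. It had a peak in all 6 earlier H3K4me3 libraries. 4930432K21Rik, a partner of HSF2BP in recombination also called Brme1, had 994 bp and 1199 bp in diplonema and a peak in 5 of the 6 earlier libraries, at a site shared with Cc2d1a. Both genes were thus marked early in prophase, without a call at late pachynema and marked again at diplonema, and both were also gained with lists of equal length. Such returning sites were looked at after their values were seen, and they included Fgf11, a fibroblast growth factor gene (686 bp and 1615 bp), and Ypel2 (577 bp and 1630 bp). At protein-coding genes 73 gained sites had a peak in both leptonema libraries.

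Among the kept genes of this list 13 of 18 (72.2%) were wider in both experiments, close to the 77.5% of all kept protein-coding genes. In experiment 1, 5 of them were narrower in diplonema, among them the hotspot-defining methyltransferase gene Prdm9 (196 bp at late pachynema and 167 bp at diplonema), Brca2 (505 bp and 257 bp) and Meiob (422 bp and 351 bp). In experiment 2 these genes had 496 bp and 489 bp, 455 bp and 713 bp, and 1315 bp and 1193 bp. Prdm9 and Meiob thus went the same way in both experiments and Brca2 did not. The piRNA pathway had 21 of 25 genes kept (84.0%) and none gained or lost, and 17 of 21 were wider in both experiments.

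Ribosomal protein genes had the lowest median widening of the lists in experiment 1, but not in experiment 2. Of 72, 47 were kept (65.3%), none was gained and Rpl6 was lost. Among the kept ones the median log2 ratio was 0.18 in experiment 1 and 0.50 in experiment 2, against 0.59 and 0.55 over kept protein-coding genes and 0.48 and 0.45 over kept genes of the axis and recombination list, and 28 of 47 (59.6%) were wider in both. In experiment 1 16 of 47 were narrower in diplonema, such as Rpl5 (422 bp and 332 bp) and Rps24 (543 bp and 441 bp), while in experiment 2 these were wider (466 bp and 764 bp, 859 bp and 1173 bp). For comparison, kept genes of the sperm tail had median log2 ratios of 1.04 and 0.71.

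Genes of somatic testis cells had few peaks. Of 37 genes of somatic testis cells none was kept, 0 and 1 were marked in the late pachynema libraries and 0 and 4 in the diplonema libraries (Inha, Inhbb, Insl3 and Nr5a1, with Nr5a1 also in late pachynema library 2). The other 33, among them Sox9, Wt1 and Amh of Sertoli cells, Star and Cyp17a1 of Leydig cells and Ptprc of leukocytes, had no peak. Of 32 spermatogonial and meiotic entry genes 6 were kept (18.8%) and none gained, with 7 and 11 marked in late pachynema and 6 and 14 in diplonema. Among protein-coding genes 26.8% and 40.3% were marked in late pachynema and 29.3% and 46.8% in diplonema, so this list was not far from the background. Of 39 Hox genes 1 was kept and none gained, with 8 marked in diplonema library 2 and 1 in library 1. No gained gene was on these 3 lists. Among the sorting markers, Sycp3 was kept, with 493 bp and 1112 bp in late pachynema and 1844 bp and 2742 bp in diplonema, and Sycp1 had peaks in experiment 2 only, of 1465 bp and 1686 bp. Stra8, which marks leptonema, had no peak in the 4 libraries and one in both leptonema libraries. Hist1h1t, whose product H1t served to sort both populations, had no peak in any of the 4. Among the earlier libraries it had one in leptonema library 1 and in zygonema library 2. The presence of a peak at these genes therefore did not distinguish the 2 populations, while the Sycp3 peaks were wider in both diplonema libraries.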

How the data were processed

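Chromatin of sorted nuclei was immunoprecipitated and sequenced by the authors, who aligned reads to mm10 with BWA 0.7.12 and called peaks per library with MACS2 2.1.2 in broad mode (q 0.1), against stage-matched input for H3K4me3. The control for H3K9ac is not given in the sources used here. The deposited lists hold peak positions in base pairs on chromosomes 1 to 19, with no score, coverage or read count, so the depth behind a call cannot be read from them. A deeper or purer library can give a longer list with wider peaks, and a site without a peak may carry the mark below the threshold.

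Peaks were merged (overlap of at least 1 bp or adjoining) and compared in Python 3.11.15 (numpy 2.4.6, scipy 1.17.1). TSSs were 125891 windows of 500 bp to either side of GENCODE M21 transcript starts. Gene widths are summed over the peaks at the TSSs of a gene. Named sites were the 10 widest gained and lost sites at protein-coding TSSs, the 5 widest outside TSSs (1 for lost), the 5 kept sites with the largest rise or fall in both experiments, gained or lost genes of 12 gene lists, and the sorting markers. Further kept genes named from the lists, and the returning sites, were chosen after their values were seen. The members, lists and alternatives were chosen with earlier results of these data known. Promoter sequences are from RefSeq, all 31396 identical to the GRCm38.p6 sequence. The code for the classes was run on simulated lists of well separated sites without missed calls, where 600 of 600 sites were recovered. This checks the code only and not how reliable the calls are. Stages were compared by two-sided exact permutation tests and classes by exact sign-flip tests over libraries.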

Additional observations from a re-analysis of the deposited data

How the results depend on the processing

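The counts of gained and lost sites changed when the lists were cut by width, to equal sizes or to their wider peaks, or when a library was left out. Gained sites numbered 336 with equal list sizes within each experiment and 662 to 3225 without 1 library. Lost sites numbered 54 in the wider peaks of each list (those above its median width), 308 with equal list sizes, 155 with equal sizes within each experiment, and 22 to 581 without 1 library. Kept sites numbered 1752 in the wider peaks. Pairing the libraries by experiment (a replicate block), the gained, lost and kept sites were 2221, 762 and 4399 within experiment 1 and 3352, 346 and 8716 within experiment 2, and with 2 pairs the smallest p is 0.5. The difference in peaks per list was -511.5 without diplonema replicate 2 and up to 4914.5 without another library. The share at a TSS of gained sites was 76.3% (wider peaks), 65.0% (equal sizes), 69.3% (block, experiment 1), 35.0% (protein-coding TSSs) and 53.8% to 72.8% without 1 library. That of lost sites was 46.5% (block, experiment 2), 100% (no peak within 1000 bp) and 47.0% to 97.8% without 1 library, and that of kept sites 98.3% (wider peaks), 97.9% (equal sizes), 96.4% and 89.8% (block), 94.2% (protein-coding TSSs) and 93.0% to 97.4% without 1 library. The mean share with a peak in the 6 earlier libraries was 19% for gained TSS sites and 11.8% to 28.4% without 1 library, 62.3% (wider peaks) and 23.5% to 91.1% for lost sites, and 79.9% (overlap of at least 25% of the site), 76.3% (wider peaks) and 76.6% to 89.9% for kept sites. The difference between gained and lost sites ran from -79.3 to -6.89 points, and p was 0.0625 without late pachynema replicate 1 (exact sign-flip test) and 0.03125 in the other settings. As stated above, this p adds no support to a difference between the classes in any setting. Gained genes numbered 204 (protein-coding TSSs), 1754 and 2116 (block) and 419 to 1985 without 1 library. Lost genes numbered 369 (equal sizes), 67 (wider peaks), 843 and 161 (block) and 23 to 728 without 1 library, and kept genes 2471 (wider peaks) and 9901 (block, experiment 2). The median CpG ratio at gained sites was 0.358 to 0.625 without 1 library and 0.628 within experiment 2. The settings for the CpG ratio and for the difference between gained and lost sites were added after seeing the data. Of the settings for these results, 145 counted as unchanged, 53 moved, 1 reversed and 1 missed the threshold. For differences between the stages, and between gained and lost sites, unchanged refers to direction and, where tested, the threshold, and not to size. The difference in peaks per list, for example, counted as unchanged from 234 to 4914.5. The cause of the changes was not tested, though leaving out a library relaxes the rule. The lists give calls without depth, which limits each count, and the experiment and the list length move with it.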
